A study of Mus musculus with 12 samples.

Results

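The proteasome genes of the mouse liver were described here as the protein-coding genes named Psma, Psmb, Psmc, Psmd, Psme, Psmf or Psmg followed by a number, which gave 48 of the 43346 genes counted. They were read across 12 whole-liver RNA libraries in 4 groups of 3. The first group was S1pr1 loxP/loxP;Lyz2-Cre/0 mice (KO) on a diet high in fat, fructose and cholesterol (FFC), the second S1pr1 loxP/loxP littermates without Cre (WT) on FFC, the third KO mice on chow and the fourth WT mice on chow. The mice began their diet at 12 weeks of age and stayed on it for 24 weeks. Both genotypes thus carried the floxed alleles, and the knockout was limited to cells in which Lyz2 drives Cre, which are myeloid cells. S1pr1, a receptor for sphingosine 1-phosphate, had 35.3, 35.7 and 38.9 CPM (read counts set to a common library size, scaled by edgeR's trimmed mean of M-values) in KO livers on FFC, against 33.7, 39.3 and 29.1 in WT livers on FFC. On chow it had 41.5, 28.2 and 32.9 CPM in KO livers, against 29.8, 27.3 and 44.4 in WT livers. The groups overlapped on both diets, and a whole-liver level includes the cells that kept the gene, so it is no check of the genotype labels. Whether the 3 libraries of a group are 3 separate mice is not given by the labels, and the p-values therefore measure the spread between libraries.

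The proteasome degrades proteins tagged with ubiquitin. Its 20S core is a stack of rings of alpha and beta subunits, in which Psmb5, Psmb6 and Psmb7 carry the peptidase sites, and the 19S particle of ATPases (Psmc genes) and non-ATPase subunits (Psmd genes) recognises, unfolds and feeds the substrates. In immune cells, and in other cells exposed to interferon gamma, Psmb8 takes the place of Psmb5, Psmb9 that of Psmb6 and Psmb10 that of Psmb7, and Psme1 with Psme2 forms the PA28 cap. This immunoproteasome changes which peptides are cut for display on MHC class I. Liver is made up mostly of hepatocytes, which use chiefly the constitutive core.

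Of the immunoproteasome genes, Psmb8 lies close to Psmb9 and Psme1 close to Psme2, while Psmb10 lies on another chromosome (chr8:105935728-105938392). In mm10 coordinates, as the count table gives them, Psmb9 (chr17:34181988-34187764) and Psmb8 (chr17:34197721-34201454) lie in the MHC region, and Psme1 (chr14:55578123-55581529), Psme2 (chr14:55587441-55591113) and Psmb5 (chr14:54614120-54617995) share a chromosome. Promoter windows are shown for 4 genes, Psmb9 and Psmb6, whose ratio shifted with diet, and Psme1 and Psmb5, of which the first fell on FFC in both genotypes and Psmb5 in KO livers. Each runs from 250 bases before to 50 bases after the start of the gene in RefSeq (GRCm38.p6), on the strand of the gene. Capitals mark the 225 bases between the start sites of Psmb9 and Tap1, the peptide transporter gene read in the opposite direction, for Psmb9 (chr17:34187281-34187580, minus strand). They mark a GAAANNGAAA match, read on the other strand, for Psme1 (chr14:55578244-55578543, plus strand), and a TGACNNNGC match for Psmb5 (chr14:54617946-54618245, minus strand) and Psmb6 (chr11:70525107-70525406, plus strand).
Psmb9: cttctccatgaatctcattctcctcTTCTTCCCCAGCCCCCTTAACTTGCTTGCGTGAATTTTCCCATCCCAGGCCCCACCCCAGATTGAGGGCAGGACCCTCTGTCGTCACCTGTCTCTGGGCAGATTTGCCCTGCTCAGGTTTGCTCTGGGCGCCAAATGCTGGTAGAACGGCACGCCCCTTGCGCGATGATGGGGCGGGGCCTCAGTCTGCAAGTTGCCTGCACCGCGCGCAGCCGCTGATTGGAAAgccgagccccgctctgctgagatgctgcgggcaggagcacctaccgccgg
Psme1: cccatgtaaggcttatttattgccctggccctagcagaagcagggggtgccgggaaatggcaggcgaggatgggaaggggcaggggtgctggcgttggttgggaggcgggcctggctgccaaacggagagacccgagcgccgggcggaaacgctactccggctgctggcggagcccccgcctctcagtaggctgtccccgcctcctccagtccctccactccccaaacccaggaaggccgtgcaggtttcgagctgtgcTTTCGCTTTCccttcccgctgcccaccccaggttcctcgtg
Psmb5: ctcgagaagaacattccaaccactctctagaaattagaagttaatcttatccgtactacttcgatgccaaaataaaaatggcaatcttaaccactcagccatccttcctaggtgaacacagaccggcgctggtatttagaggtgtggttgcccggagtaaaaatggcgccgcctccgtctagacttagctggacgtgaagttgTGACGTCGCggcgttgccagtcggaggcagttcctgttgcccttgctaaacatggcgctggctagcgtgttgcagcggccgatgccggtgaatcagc
Psmb6: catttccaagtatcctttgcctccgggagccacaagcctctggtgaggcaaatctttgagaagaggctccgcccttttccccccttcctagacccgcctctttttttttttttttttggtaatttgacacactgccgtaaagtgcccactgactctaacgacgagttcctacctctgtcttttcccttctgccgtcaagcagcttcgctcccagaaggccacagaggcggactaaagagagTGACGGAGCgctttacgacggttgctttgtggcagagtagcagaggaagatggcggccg
The repeat GAAANNGAAA resembles the element bound by interferon regulatory factors, TTCNNNGAA the gamma-activated site, and TGACNNNGC the antioxidant response element bound by Nfe2l1 and Nfe2l2. Both strands were searched in 32851 RefSeq windows, and 40 of the 48 members had a window, 43 windows in all. GAAANNGAAA was found in 5 member windows (11.6%), against 3.44% of all windows, and the genes were Psmb3, Psmd4, Psmd9, Psme1 and Psmg4. TTCNNNGAA was found in 3 member windows (6.98%), against 8.3% of all, and the genes were Psmb8, Psmd2 and Psmg1. TGACNNNGC was found in 6 member windows (14.0%), against 12.4% of all, and the genes were Psmb5, Psmb6, Psmc6, Psmd12, Psmd9 and Psme4. The matches began at position 10 after the start of Psme1 and at positions -47 and -9 for Psmb5 and Psmb6. Of the 5 immunoproteasome genes, Psmb8 and Psme1 thus held an interferon-related letter pattern in these windows.

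All 48 members were in the count table, and 47 passed the filter on low counts. Psmb11, the subunit of the thymus cortex, had 1 read in the 12 libraries together and was not tested. Psma8, the alpha subunit of the testis, passed with 54, 16 and 23 reads in KO livers on FFC, 11, 10 and 16 in WT livers on FFC, 6, 0 and 32 in KO livers on chow and 20, 14 and 58 in WT livers on chow. Of the testis markers Prm1, Tnp1 and Acrv1, 2 were at 0 in all libraries. Levels between genes were compared as RPKM (reads per kilobase and sequencing depth), averaged over the 12 libraries. By the gene length in the deposited table, the highest and lowest members were Psma2 (134 RPKM) and Psma3 (36.2) among the constitutive alpha subunits, and Psmb7 (145) and Psmb3 (41.3) among the constitutive beta subunits. Among the 19S ATPases they were Psmc1 (84.6 RPKM) and Psmc2 (19.1), and among the 19S non-ATPase subunits Psmd8 (90.1) and Psmd3 (10.1). Psme2 (43.9 RPKM) was the highest and the inhibitor Psmf1 (4.20) the lowest of the activators and inhibitor, and Psmg1 (12.3) and Psmg4 (4.26) were the extremes of the assembly factors. The deposited length is over 2 times the length of the principal transcript in GENCODE M21 for 11 of the 48 members, and by transcript length Psma7 (124 RPKM) and Psma2 (43.4) became the alpha extremes and Psmb6 (167) and Psmb2 (80.7) the beta extremes. The catalytic immunoproteasome subunits were low by either length, with Psmb10 at 24.9 RPKM by deposited and 24.1 by transcript length, Psmb8 at 11.6 and 19.5, and Psmb9 at 5.30 and 14.3.

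On the FFC diet most constitutive 20S core genes and 3 of 5 immunoproteasome genes were lower than on chow in both genotypes, relative to the other genes of the liver. In KO livers 19 of the 47 tested members fell and 2 rose, where 12.8% of all 16283 tested genes fell and 13.7% rose (edgeR's quasi-likelihood test, adjusted p under 0.05). In WT livers 16 members fell and 0 rose, where 8.03% of all genes fell and 8.76% rose. The members' median log2 change was -0.30 in KO and -0.41 in WT livers, against 0.09 and 0.04 over all tested genes. With total counts alone as the scaling, a choice made after seeing the data, the all-gene median moved to 0.57 in KO and 0.47 in WT livers, and the members' direction flipped to medians of 0.17 and 0.02. Then 10 members were called higher and 3 lower in KO livers, and 3 were called in WT livers, all higher (Psmd1, Psmd8 and Psme3), where 40.6% of all genes were called in KO and 27.0% in WT livers. With offsets for GC content and gene length the all-gene median moved to -0.21 in KO and -0.19 in WT livers, and 28 of 47 members were called in each genotype, all lower, where 30.2% of all genes were called in KO and 25.1% in WT livers. Relative to the all-gene median, the members' median lay between -0.55 and -0.34 in KO and between -0.52 and -0.30 in WT livers under every scaling, filter and test tried with all 12 libraries or with the compared groups alone. Library scaling moves all genes nearly alike, so this range cannot show whether the direction depends on the scaling. The counts also depended on single libraries. In KO livers 8 members (17.0%) were called without KO FFC replicate 1, where 16.4% of all genes were. In WT livers 6 (12.8%) were called without WT FFC replicate 3 or replicate 4, where 9.34% and 8.89% of all genes were. Without WT FFC replicate 2 or WT chow replicate 4 it was 7 members (14.9%), where 7.81% and 10.5% of all genes were called, and without WT chow replicate 3 it was 4 members (8.51%), where 10% of all genes were. Counting both directions, the members' share was thus near that of all genes without KO FFC replicate 1 and without WT chow replicate 3. All members called in these fits were lower, where 8.3% and 4.44% of all genes were called lower.

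**Figure D1:**
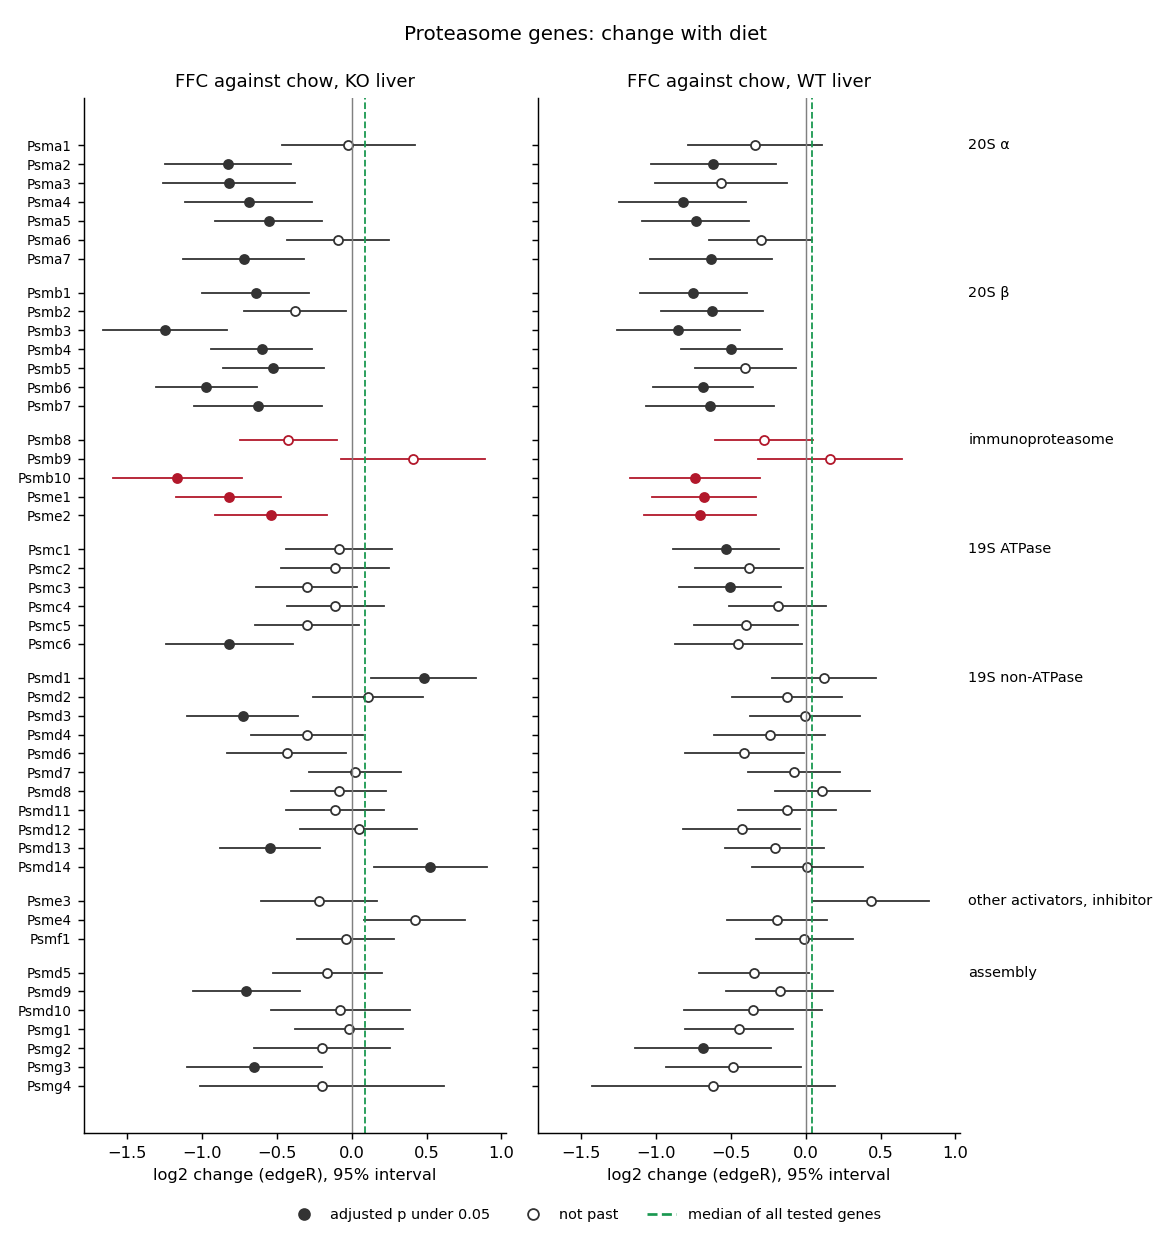
Log2 change of 46 proteasome genes on FFC against chow in KO livers (left) and WT livers (right), with 95% intervals from edgeR; filled points pass an adjusted p of 0.05, red marks the immunoproteasome genes, and the dashed line is the median of all tested genes (0.09 in KO, 0.04 in WT). Psma8, with few reads, is left out. The 20S core genes and Psmb10, Psme1 and Psme2 lie left of the line and Psmb9 right of it in both panels, and the 19S genes range in KO livers from -0.82 (Psmc6) to 0.53 (Psmd14).

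Of the 7 constitutive alpha subunits, which form the outer rings and the gate of the core, 5 fell in KO and 4 in WT livers. Psma2 had 87.2, 112 and 102 CPM in KO livers on FFC, against 142, 210 and 183 on chow, and the groups did not overlap (log2 change -0.83 ± 0.20 SE, adjusted p = 0.00635). Psma4 had 100, 95.9 and 91.9 CPM in WT livers on FFC, against 148, 205 and 158 on chow, also without overlap (-0.82 ± 0.20, adjusted p = 0.0097). Psma5 fell in both genotypes, by 0.56 in KO and 0.74 in WT livers on the log2 scale. Psma1 and Psma6 did not pass in either genotype.

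Of the 7 constitutive beta subunits, 6 fell in each genotype. Psmb3, a structural subunit of the beta ring, had 59.6, 65.6 and 74.6 CPM in KO livers on FFC, against 136, 182 and 156 on chow (-1.25 ± 0.20, adjusted p = 0.000368). In WT livers it had 54.7, 57.1 and 53.8 CPM on FFC, against 71.3, 126 and 101 on chow (-0.85 ± 0.19, adjusted p = 0.00677). Psmb3 thus had its lowest chow library above its highest FFC library in both genotypes, and WT chow replicate 2, at 71.3 CPM, was the chow library nearest to FFC. Psmb1 had 98.3, 94.7 and 101 CPM in WT livers on FFC, against 133, 205 and 158 on chow (-0.75 ± 0.17, adjusted p = 0.00622). Of the structural subunits Psmb2 and Psmb4, in KO livers Psmb4 fell by 0.60 on the log2 scale while Psmb2 was at -0.38 (adjusted p = 0.0884), and in WT livers Psmb2 fell by 0.63 and Psmb4 by 0.50.

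Among the constitutive catalytic subunits, Psmb6, the caspase-like site, had 102, 97.3 and 111 CPM in KO livers on FFC, against 194, 209 and 207 on chow (-0.97 ± 0.16, adjusted p = 0.000507). In WT livers Psmb6 had 87.4, 86.5 and 87.3 CPM on FFC, against 113, 159 and 149 on chow (-0.69 ± 0.16, adjusted p = 0.00734). The FFC libraries of Psmb6 were all below the chow libraries of the same genotype. Psmb7, the trypsin-like site, had 132, 165 and 154 CPM in KO livers on FFC, against 173, 279 and 247 on chow (-0.63 ± 0.20, adjusted p = 0.0293), and fell by 0.64 in WT livers, calls that were each lost in 7 of 15 alternatives. Psmb5, the chymotrypsin-like site, had 71.2, 61.3 and 73.3 CPM in KO livers on FFC, against 114, 87.0 and 94.8 on chow, and fell by 0.53 on the log2 scale (adjusted p = 0.0225). This call was lost in 7 of 15 alternatives, 3 of which left out 1 library (KO FFC replicate 1 or 4, or KO chow replicate 1), and with the GC and length offsets the change was -0.05 (adjusted p = 0.833), or 0.16 above the all-gene median. Its change in WT livers was -0.41 ± 0.16 (adjusted p = 0.0934).

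In the immunoproteasome set 3 of 5 genes fell in each genotype, namely Psmb10, Psme1 and Psme2, and its median log2 change was -0.54 in KO and -0.68 in WT livers. Psmb10 had 25.4, 21.5 and 25.0 CPM in KO livers on FFC, against 50.6, 69.7 and 41.0 on chow (-1.17 ± 0.21, adjusted p = 0.000829). In WT livers it had 19.9, 17.1 and 17.9 CPM on FFC, against 23.3, 33.8 and 34.6 on chow (-0.74 ± 0.21, adjusted p = 0.0205). Neither genotype had overlapping diet groups for Psmb10. Its call in KO livers was kept in every alternative tried, and in WT livers it was lost when 1 of 5 libraries was left out (any of the 3 on FFC, or chow replicate 3 or 4), with log2 changes of -0.80 to -0.64, and with total counts alone, at -0.31 (adjusted p = 0.258). Psme1 had 70.1, 79.6 and 74.9 CPM in KO livers on FFC, against 138, 142 and 118 on chow (-0.82 ± 0.17, adjusted p = 0.00205). In WT livers Psme1 had 69.7, 65.5 and 61.6 CPM on FFC, against 89.4, 128 and 98.6 on chow (-0.68 ± 0.17, adjusted p = 0.00994). The partner subunit Psme2 had 66.2, 64.3 and 70.3 CPM in KO livers on FFC, against 78.3, 117 and 96.2 on chow (-0.54 ± 0.18, adjusted p = 0.0322), and fell by 0.71 in WT livers (adjusted p = 0.0114). The Psme2 call in KO livers was lost in 8 alternatives, among them leaving out any 1 of the 3 KO FFC libraries. Psme2b, a near-identical copy that is no member, was at -1.30 on the log2 scale in KO livers (adjusted p = 0.104) and fell by 2.22 in WT livers (adjusted p = 0.022), and how reads shared by the copies were assigned was not stated.

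Psmb8 and Psmb9 did not pass the test in either genotype. Psmb8 had 34.0, 30.4 and 28.9 CPM in KO livers on FFC, against 46.5, 40.7 and 37.9 on chow (-0.42 ± 0.16, adjusted p = 0.0526), and 26.1, 24.6 and 22.9 in WT livers on FFC, against 29.9, 30.3 and 29.2 on chow (-0.28 ± 0.16, adjusted p = 0.237). Its diet groups did not overlap, with every FFC library below every chow library of the same genotype. Offsets for GC content and gene length placed Psmb8 past the threshold in both genotypes, at -0.56 in KO and -0.60 in WT livers. Relative to the all-gene median these values were -0.35 and -0.42, against -0.51 and -0.33 without the offsets. Psmb9 had 27.1, 18.04 and 25.5 CPM in KO livers on FFC, against 12.6, 22.6 and 18.1 on chow (0.41 ± 0.23, adjusted p = 0.196). In WT livers it had 21.4, 17.6 and 18.3 CPM on FFC, against 17.9, 13.6 and 19.8 on chow (0.16 ± 0.23, adjusted p = 0.677). The diet groups of Psmb9 overlapped in both genotypes. With total counts alone as the scaling, the change of Psmb9 in KO livers was 0.90 and passed the threshold.

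**Figure D2:**
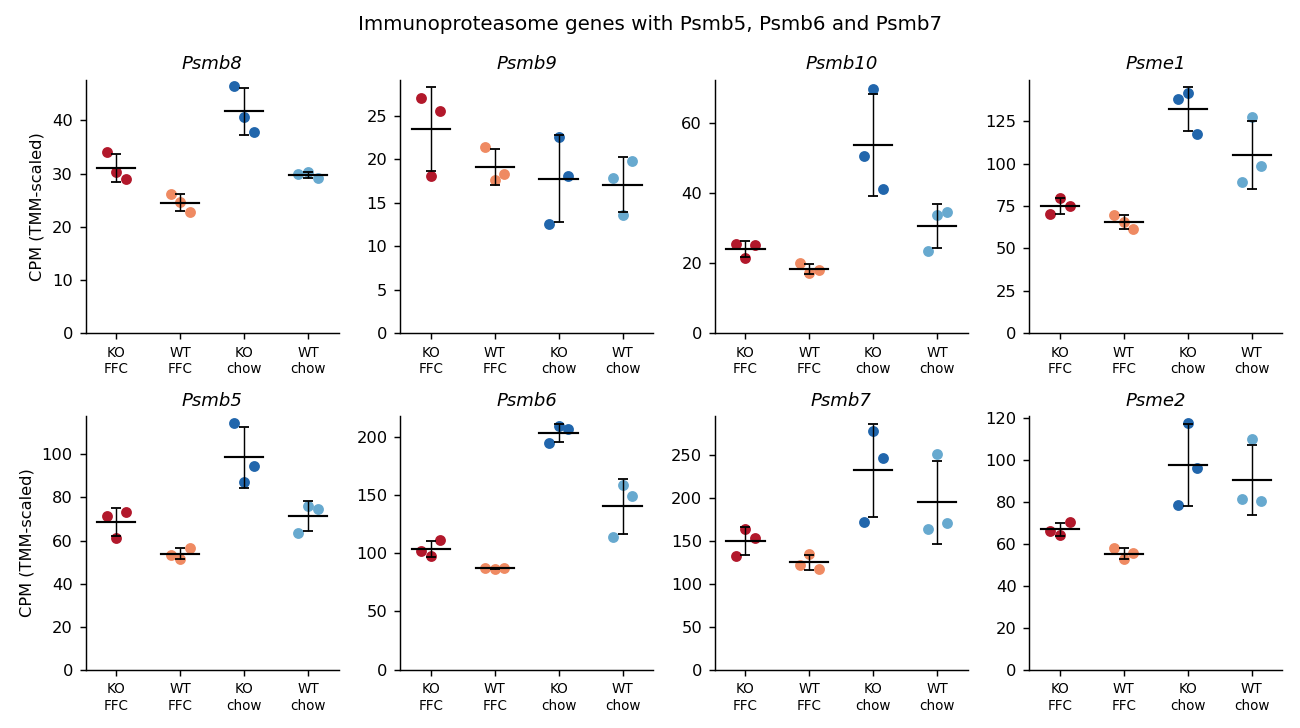
Level of the 5 immunoproteasome genes and of Psmb5, Psmb6 and Psmb7 in CPM on the vertical axis, by group; each point is 1 library, the line is the mean and the bar 1 SD (n = 3). Psmb6 and Psmb10 on FFC lie below their chow libraries in both genotypes, while the Psmb9 groups overlap.

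The balance between each immunoproteasome subunit and the subunit it replaces was taken as the log2 ratio of their counts per kilobase within a library, which needs no scaling between libraries. Psmb9 over Psmb6 was higher on FFC in both genotypes. The ratio was -2.88, -3.40 and -3.09 in KO livers on FFC, against -4.92, -4.18 and -4.48 on chow. In WT livers it was -2.99, -3.26 and -3.22 on FFC, against -3.63, -4.52 and -3.87 on chow. No FFC library reached down to a chow library of its genotype, and the differences were 1.399 in KO and 0.85 in WT livers. Over both genotypes the difference was 1.12, or 2.18-fold, with a two-sided exact permutation p of 0.005, the smallest that the 400 arrangements of diet labels within genotype allow (0.015 adjusted over the 3 pairs). Leaving out any 1 library gave differences of 1.00 to 1.22, each with an adjusted exact p of at most 0.03. Beside this ratio stands the change of each gene, since Psmb6 fell and Psmb9 did not pass the test.

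Neither of the other pairs passed the test. Psmb8 over Psmb5 averaged -2.79 ± 0.18 in KO livers and -2.79 ± 0.15 in WT livers on FFC, against -2.89 ± 0.13 in KO livers and -2.91 ± 0.14 in WT livers on chow (SD, n = 3 each), a difference of 0.11 with diet (adjusted exact permutation p = 0.145). With the GC and length offsets this difference was -0.37, so its direction turned. Psmb10 over Psmb7 averaged -2.71 ± 0.28 in KO livers and -2.84 ± 0.19 in WT livers on FFC, against -2.18 ± 0.42 in KO livers and -2.73 ± 0.32 in WT livers on chow (SD, n = 3 each), a difference of -0.32 (adjusted exact permutation p = 0.145). For KO against WT the differences were 0.01 for Psmb8 over Psmb5 (adjusted exact permutation p = 0.87), -0.24 for Psmb9 over Psmb6 (0.3825) and 0.34 for Psmb10 over Psmb7 (0.285). The offsets put the last at 0.08 and Psmb8 over Psmb5 at 0.14, and Psmb9 over Psmb6 ranged from -0.37 without WT chow replicate 3 to -0.14 without KO chow replicate 1. The 3 catalytic immunoproteasome subunits made up 12.5 ± 1.36% of the summed RPKM of the 6 catalytic genes in KO livers and 11.9 ± 0.935% in WT livers on FFC, against 13.1 ± 2.04% in KO livers and 11.2 ± 1.28% in WT livers on chow (SD, n = 3 each), ranges that overlapped.

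**Figure D3:**
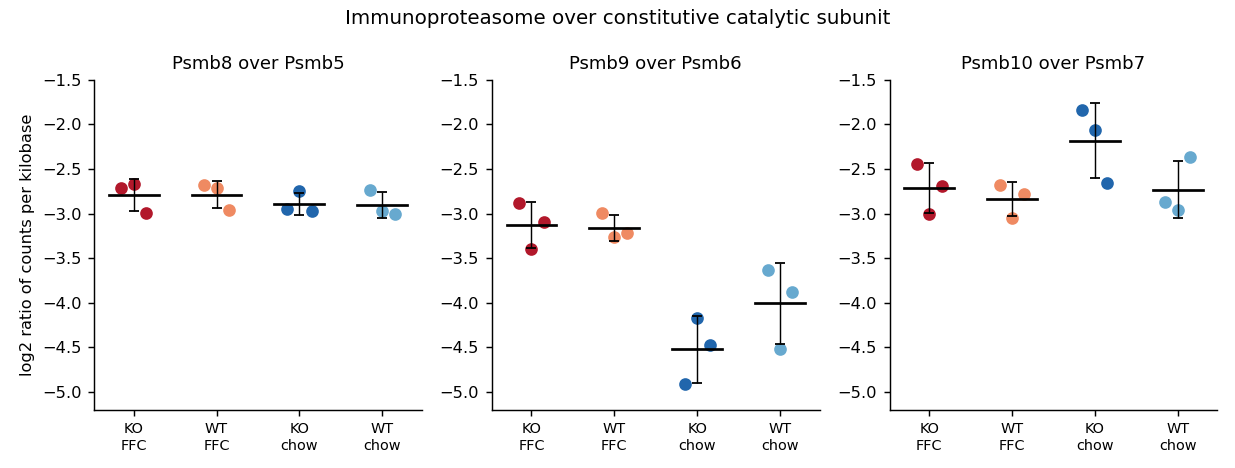
Log2 ratio of counts per kilobase within each library for the 3 pairs of catalytic subunits, by group; points are libraries, lines means and bars 1 SD (n = 3). The FFC libraries of Psmb9 over Psmb6 all lie above the chow libraries of the same genotype, while the other pairs overlap between the diets.

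The median change of the 19S particle was smaller than that of the core, and this difference was not tested. Of its 17 subunits, 3 fell (17.6%) and 2 rose (11.8%) in KO livers, where 12.8% of all tested genes fell and 13.7% rose. In WT livers 2 fell (11.8%), where 8.03% of all genes did, so these shares were near those of all genes. The median log2 change of the 19S particle was -0.11 in KO and -0.21 in WT livers, against -0.64 and -0.63 for the 14 constitutive core subunits. The ATPase Psmc6 fell by 0.82 on the log2 scale in KO livers, and the ATPases Psmc1 and Psmc3 fell by 0.54 and 0.51 in WT livers. Psmd3, a scaffold subunit of the lid, had 48.4, 34.4 and 43.3 CPM in KO livers on FFC, against 85.1, 57.6 and 66.6 on chow (-0.73 ± 0.18, adjusted p = 0.00645). The other non-ATPase subunit that fell was Psmd13, by 0.55 in KO livers. Psmd14, the deubiquitinase of the lid, had 52.0, 57.4 and 56.2 CPM in KO livers on FFC, against 29.9, 39.5 and 45.7 on chow, and rose (0.53 ± 0.18, adjusted p = 0.0371). Psmd1, a scaffold of the base, had 116, 114 and 127 CPM in KO livers on FFC, against 69.3, 83.4 and 103 on chow, and rose (0.48 ± 0.17, adjusted p = 0.0406). Both calls depended on the processing, and each was lost in 9 of 15 alternatives, among them leaving out any 1 of the 3 KO FFC libraries or KO chow replicate 1 or 2. With median-ratio size factors Psmd14 was at 0.49 (adjusted p = 0.0512) and Psmd1 at 0.44 (adjusted p = 0.0576), and 0 members rose. With the GC and length offsets Psmd14 was at 0.18 and Psmd1 at -0.16, which lay 0.39 and 0.05 above the all-gene median of -0.21, and neither was called.

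Summed over subunits, the 14 core genes had 1.54 ± 0.0586 times the RPKM of the 17 genes of the 19S particle in KO livers on FFC, against 2.06 ± 0.145 times on chow (SD, n = 3 each). In WT livers the ratio was 1.37 ± 0.00837 on FFC, against 1.74 ± 0.178 on chow. Its values in the FFC libraries (1.49 to 1.60 in KO and 1.37 to 1.38 in WT livers) did not overlap those on chow (1.94 to 2.22 in KO and 1.63 to 1.94 in WT livers). The ratio needs no scaling between libraries, but it depends on gene length and was not tested. With offsets for GC content and gene length the core and 19S medians were -0.69 and -0.40 in KO and -0.51 and -0.47 in WT livers, so the gap nearly closed in WT livers.

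**Figure D4:**
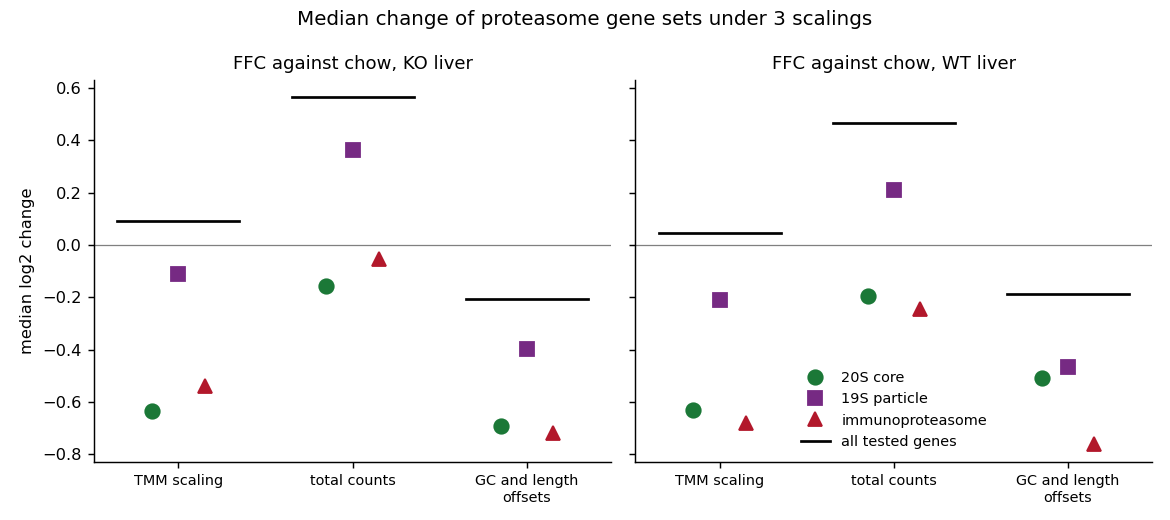
Median log2 change on FFC against chow of the 14 constitutive 20S core genes, the 17 genes of the 19S particle, the 5 immunoproteasome genes and all tested genes (lines), in KO livers (left) and WT livers (right) under 3 scalings. The sets lie below the line of all genes under each scaling, although the medians of the 19S particle are above 0 with total counts alone. Going to total counts moves the sets and the line nearly alike.

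The activators and the inhibitor outside the immunoproteasome did not pass. Psme3, which forms the nuclear PA28 gamma cap, changed by -0.22 in KO livers (adjusted p = 0.394) and by 0.43 in WT livers (adjusted p = 0.12). The change of Psme4, the PA200 cap, was 0.42 in KO livers (adjusted p = 0.0606) and -0.19 in WT livers (adjusted p = 0.448), and Psmf1, the inhibitor PI31, was at -0.04 and -0.01. Of the 7 assembly factors, 2 fell in KO livers, Psmd9 by 0.70 and Psmg3 by 0.65, and 1 in WT livers, Psmg2 by 0.69. That is 28.6% in KO and 14.3% in WT livers, where 12.8% and 8.03% of all tested genes fell. Psmd9 chaperones the ATPase ring, and the Psmg proteins guide the alpha ring.

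KO and WT livers on FFC did not differ in any member past the threshold. By edgeR 0 of 47 members were called, where 0.0184% of all tested genes were, and 2 members (4.26%) had an unadjusted p under 0.05, where 3.63% of all genes did. DESeq2 and limma-voom also called 0 members, where they called 0.111% and 0.0184% of all tested genes. Psmb8 had 34.0, 30.4 and 28.9 CPM in KO livers, against 26.1, 24.6 and 22.9 in WT livers (0.34 ± 0.16, edgeR adjusted p = 1), and Psmb5 had 71.2, 61.3 and 73.3 CPM, against 53.3, 51.5 and 56.7 (0.35 ± 0.16, adjusted p = 1). The groups did not overlap for either gene. Most members leaned the same way, with 40 of 47 log2 changes above 0 and a median of 0.19, against -0.01 over all genes. All 3 KO libraries were above all 3 WT libraries for 19 of 47 members, where this held for 10.9% of all tested genes, and below them for 1 member (Psme3), where this held for 10.5%. The 19 included 6 of 7 constitutive beta subunits and 4 of 5 immunoproteasome genes, but 4 of the 17 subunits of the 19S particle. Psmg1, Psmb1 and Psmb4 had the lowest p of the others, with log2 changes of 0.33, 0.32 and 0.31 (adjusted p = 1 each). These 3 KO libraries also enter the comparison with KO livers on chow.

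On chow 4 members (8.51%) were higher in KO than in WT livers and 0 lower, where 4.01% of all tested genes were higher and 3.27% lower. Psmb10 had 50.6, 69.7 and 41.0 CPM in KO livers, against 23.3, 33.8 and 34.6 in WT livers, without overlap (0.82 ± 0.21, edgeR adjusted p = 0.0301). Psmd3 had 85.1, 57.6 and 66.6 CPM in KO livers, against 42.8, 43.2 and 48.4 in WT livers (0.64 ± 0.18, adjusted p = 0.0383). Psmb3 was higher by 0.67 ± 0.19 (adjusted p = 0.0453) and Psmb6 by 0.54 ± 0.16 (adjusted p = 0.0492), also without overlap between the genotypes. The count was 0 when the 2 chow groups were fitted alone, where edgeR called 0 of all genes. It was 10 with DESeq2 (9 higher and 1 lower), where 13.8% of all genes were called. With the GC and length offsets 7 (14.9%) were called, where 4.04% of all genes were, and 1 of the 7 (Psmb3) was among the 4. Psmb10 was then at 0.35 (adjusted p = 0.285), Psmd3 at 0.40 (0.107) and Psmb6 at 0.51 (0.0662). With total counts alone as the scaling 4 others (8.51%) were called, all lower in KO livers (Psmd1, Psmd12, Psmd14 and Psme4). This was near the 8.69% of all genes called lower. Leaving out single libraries gave 0 without WT chow replicate 2, where 0.202% of all genes were called. It gave 1 (2.13%, Psmb10) without WT chow replicate 4, where 3.06% of all genes were called, and 3 (6.38%) without replicate 3, where 4.11% were. Without KO chow replicate 1 or replicate 2 it gave 2 (4.26%), where 4.68% and 8.92% of all genes were called. Without replicate 2 these were Psmb5 and Psmd3, of which Psmd3 was among the 4. Without KO chow replicate 3 it gave 10 (21.3%), of which 7 were higher and 3 lower, where 15.1% of all genes were called. Psmb8 had 46.5, 40.7 and 37.9 CPM in KO livers, against 29.9, 30.3 and 29.2 in WT livers, without overlap (0.48 ± 0.16, adjusted p = 0.0642). Psmb5 was at 0.47 (adjusted p = 0.0786), Psme1 at 0.33 (0.207), Psme2 at 0.11 (0.743) and Psmb9 at 0.05 (0.907). Among the activators outside the set, Psme3 was at 0.40 (adjusted p = 0.181) and Psme4 at -0.47 (0.0803).

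**Figure D5:**
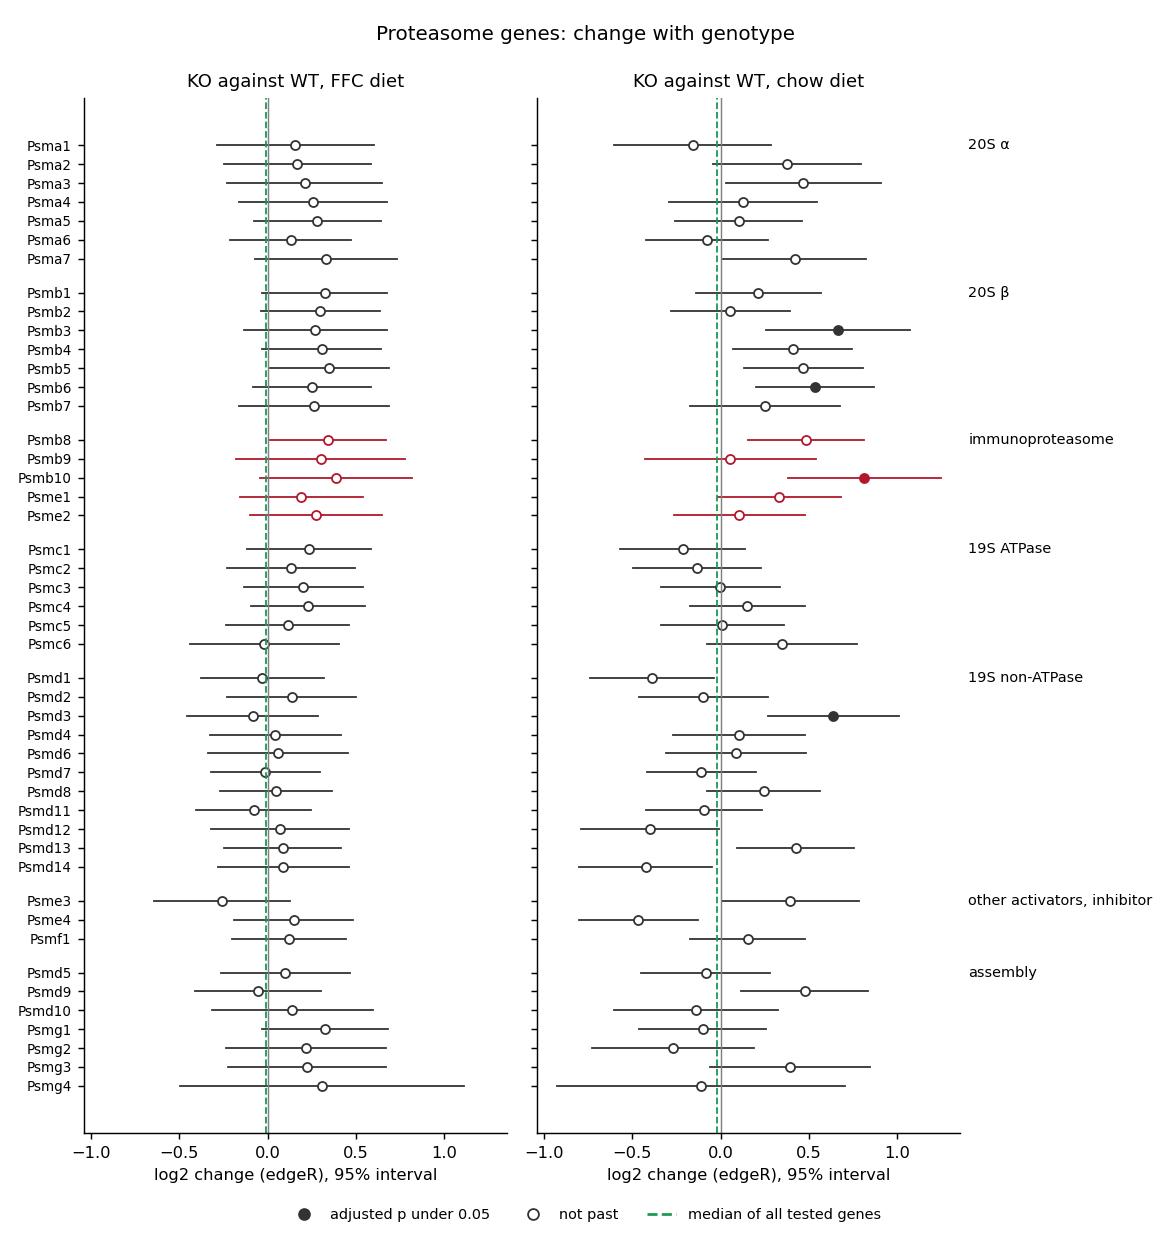
Log2 change of 46 proteasome genes in KO against WT livers on FFC (left) and on chow (right), with 95% intervals from edgeR; filled points pass an adjusted p of 0.05, red marks the immunoproteasome genes, and the dashed line is the median of all tested genes. No point is filled on FFC, where 40 of 47 members including Psma8, not drawn, lie above 0, and Psmb3, Psmb6, Psmb10 and Psmd3 are filled on chow.

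The effect of diet did not differ between the genotypes for any member past the threshold. The interaction of diet and genotype called 0 of 47 members by edgeR, where 0.0491% of all tested genes were called. An unadjusted p under 0.05 was found for 4 members (8.51%), below the 16.1% of all tested genes. DESeq2 and limma-voom called 0 members as well, where they called 2.57% and 0% of all tested genes. The 4 were Psmd3 (-0.72 ± 0.25, adjusted p = 0.184), Psme4 (0.61 ± 0.23, adjusted p = 0.208), Psme3 (-0.65 ± 0.26, adjusted p = 0.235) and Psmd9 (-0.53 ± 0.24, adjusted p = 0.289). For Psmb10 the interaction was -0.43, with a 95% interval of -1.03 to 0.18. Without KO chow replicate 3, 1 member (2.13%) was called, the low-count Psma8, where 3.45% of all genes were.

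Genes that work with the proteasome were read from lists of 26 cofactors and regulators, 12 genes of antigen processing and 16 of the interferon gamma axis. Of 25 tested cofactors, 6 rose and 5 fell in KO livers on FFC and 2 rose and 2 fell in WT livers. That is 24% and 20% in KO livers, where 13.7% of all tested genes rose and 12.8% fell, and 8.0% each way in WT livers, near the 8.76% and 8.03% of all genes. The assembly factor Pomp fell by 0.72 in KO and 0.56 in WT livers on the log2 scale, and Shfm1, the small lid subunit now named Sem1, by 0.64 and 0.80. Nfe2l2, a factor of the antioxidant response, rose by 0.92 in KO and 0.68 in WT livers. Of 12 genes of antigen processing, 1 rose (8.33%) and 3 fell (25.0%) in KO livers, where 13.7% of all tested genes rose and 12.8% fell. In WT livers 1 rose and 1 fell, and these shares of 8.33% each way were near those of all genes. B2m, the light chain of MHC class I, fell by 0.95 in KO and 0.59 in WT livers, the peptide transporter Tap2 was at -0.50 in KO (adjusted p = 0.181) and rose by 0.84 in WT livers, and the peptidase Erap1 was at -0.12 (0.699) and -0.48 (0.123). Tap1, which shares its promoter region with Psmb9, was at 0.44 in KO (adjusted p = 0.185) and 0.43 in WT livers (0.25). Of 14 tested genes of the interferon gamma axis, 7 rose in KO and 3 in WT livers and none fell in either, or 50% and 21.4% against 13.7% and 8.76% of all tested genes. Gbp2, a target of interferon gamma, rose by 0.72 in KO and 0.82 in WT livers, and Irf8 was at 0.44 in KO (adjusted p = 0.424) and rose by 1.46 in WT livers. The median log2 change of these 14 genes was 0.79 in KO and 0.35 in WT livers, against -0.54 and -0.68 for the immunoproteasome set.

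Markers of several cell types of the liver moved with diet. Of all tested genes 13.7% rose and 12.8% fell in KO livers on FFC, and 8.76% rose and 8.03% fell in WT livers. All 8 hepatocyte markers fell in KO and 6 of 8 in WT livers on FFC, and their summed level was 87112 to 103566 CPM in KO and 66175 to 87752 in WT livers on FFC, against 129697 to 197364 in KO and 142533 to 208595 in WT livers on chow. Alb made up most of this sum. As a share of unscaled counts, Alb was 8.02, 9.20 and 7.78% in KO livers on FFC, against 7.31, 10.5 and 12.4% on chow, with overlap. In WT livers Alb was 7.66, 6.16 and 8.06% on FFC, against 10.7, 14.3 and 10.1% on chow, without overlap. All 6 macrophage markers rose in both genotypes, with sums of 421 to 576 CPM in KO and 435 to 505 in WT livers on FFC, against 161 to 204 in KO and 157 to 188 in WT livers on chow. The 3 pan-leukocyte markers summed to 41.0 to 52.6 CPM in KO and 45.0 to 52.2 in WT livers on FFC, against 17.0 to 35.9 in KO and 15.4 to 23.1 in WT livers on chow, with 1 and 2 of the 3 past the test. All 4 endothelial markers rose in both genotypes, with sums of 132 to 170 CPM in KO and 173 to 195 in WT livers on FFC, against 88.2 to 96.5 in KO and 88.0 to 104 in WT livers on chow. Of 4 dendritic cell markers 3 rose in KO and 2 in WT livers, with sums of 50.2 to 86.7 CPM in KO and 82.0 to 112 in WT livers on FFC, against 18.3 to 35.5 in KO and 23.2 to 38.7 in WT livers on chow. The marker H2-Aa made up most of the dendritic sums. The 4 stellate cell markers all rose in WT livers and 0 passed in KO livers. For the interaction of diet and genotype 0 of the 4 passed (median log2 value -1.35), where 0.0491% of all tested genes did. Their sums were 208 to 270 CPM in KO and 276 to 298 in WT livers on FFC. On chow the stellate sums were 151 to 227 in KO and 121 to 217 in WT livers. Of 4 B cell markers 1 rose in KO livers, and 0 of 6 T and NK cell and 0 of 4 cholangiocyte markers passed in either genotype. No marker of these lists was at 0 in all libraries. In whole tissue, fewer cells of a type and less RNA per cell cannot be told apart, and the part of these shifts in the proteasome values was not tested. Total counts were 25773607 to 31154930 per library on FFC, against 18873092 to 25855609 on chow, and 20556 to 21308 genes had a read on FFC, against 16008 to 19029 on chow, and the part of this difference was not tested either.

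Some members share exon bases with other annotated genes, and whether the counting used strand was not stated. In GENCODE M21 the largest overlap covers 25.5% of the exon bases of Psmd9 (Gm26745, with a mean count of 3.67). Others cover 14.7% of Psmb8 (with the antisense Gm20496), 12.1% of Psmb5 (Mir686), 11.8% of Psmb7 (Nek6), 10.1% of Psmd13 (Sirt3), 9.68% of Psmg3 (Gm26938) and 5.79% of Psmb9 (Tap1). The exon length in GENCODE M21 was within 5% of the deposited length for 31 of 48 members, so these shares can differ in the gene models counted. Reads of an antisense partner cannot be told apart without strand. Mir686 lies on the same strand as Psmb5, and Gm26938 on that of Psmg3, so strand would not separate these. No overlap of this kind was found for Psmb6 or Psmb10.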

How the data were processed

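The 12 libraries were made from whole-liver RNA. According to the design text of the series, the authors mapped read pairs to mm10 by TopHat 2.1.0, counted them per Ensembl gene by featureCounts 1.4.6 and used edgeR 3.18.1. The deposited table holds raw counts per gene, with the gene length beside them. The Ensembl release and strandedness are not given in the sources used here.

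Groups came from the diet and genotype labels. The libraries were checked to be distinct (chi-square per degree of freedom of 18.2 to 135 over 12 pairs within groups). Counts totalled 18873092 to 31154930 per library. After filterByExpr, 16283 genes were fitted with edgeR 4.0.16 (R 4.3.3, quasi-likelihood, robust, trimmed mean of M-values, 4 groups), with 5 contrasts, Benjamini-Hochberg adjustment over all tested genes and a threshold of 0.05. The SE is the size of the log2 change over the root of its F statistic. CPM, RPKM and the ratios were computed from the deposited counts and lengths. Ratios were tested by exact permutation (SciPy 1.17.1) with labels permuted within the other factor and adjusted over 3 pairs. The edgeR fit was tested on simulated counts for FFC against chow in WT livers only. The ratios, the offsets and the other alternatives were not tested in this way.

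The members, the gene lists and the rule for named genes were chosen with earlier results of these data known. The rule names the immunoproteasome genes, Psmb5, Psmb6 and Psmb7, the other activators, Psma8 and Psmb11, the members past the threshold with the lowest p in each direction, the level extremes of each class and up to 3 genes per supporting list. The symbol Paaf1 of the cofactor list did not match, and 1 gene of the interferon gamma list is not reported here. Alternatives were median-ratio size factors, total counts, no filter, the authors' expression filter (1 RPKM), DESeq2 1.42.0, limma-voom (limma 3.58.1), a replicate block, offsets for GC content and gene length, the compared groups alone and leaving out each library.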

Additional observations from a re-analysis of the deposited data

How the results depend on the processing

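Main counts of members called were 21 in KO and 16 in WT (FFC against chow), 0 (KO against WT, FFC), 4 (KO against WT, chow) and 0 (interaction). Of all tested genes 26.5%, 16.8%, 0.0184%, 7.28% and 0.0491% were called, in the same order. Total counts alone, chosen after seeing the data, gave 13 in KO, 3 in WT and 4 for KO against WT on chow, in the last case all lower. The shares of all genes called were then 40.6%, 27.0% and 10.4%. Offsets for GC content and gene length gave 28 in WT livers, where 25.1% of all genes were called. They gave 7, of which 1 was shared with the main call, for KO against WT on chow, where 4.04% of all genes were called. They moved the all-gene median to -0.21 in KO and -0.19 in WT livers (FFC against chow), so that Psmd1 in KO livers, at -0.16, lay 0.05 above it. The compared groups alone gave 13 in KO livers, where 15.5% of all genes were called, and 0 for KO against WT on chow, where 0% were. DESeq2 gave 10 for KO against WT on chow, where 13.8% of all genes were called. Leaving out 1 library gave 8 to 23 in KO livers (17.0% to 48.9%), where 16.4% to 29.6% of all genes were called. In WT livers it gave 4 to 19 (8.51% to 40.4%), where 7.81% to 14.7% of all genes were called. For KO against WT on chow it gave 0 to 10 (0% to 21.3%), where 0.202% to 15.1% were. For the interaction it gave 0 to 1 (0% to 2.13%), where 0% to 3.45% were. The causes were not tested. Same-numbered libraries correlated between -0.124 and 0.09, so the numbers do not pair them. With the replicate block the counts were 14 in KO, 16 in WT, 0 for KO against WT on FFC, 0 on chow and 0 for the interaction. Of all genes 23.3%, 17.0%, 0.086%, 1.12% and 2.43% were called, in the same order. Psmb9 over Psmb6 was 0.85 in WT livers. The block cannot change this value, since both WT diet groups hold replicates 2, 3 and 4, so it is no check of the ratio. The offsets, chosen after seeing the data for the ratios, gave -0.37 for Psmb8 over Psmb5 with diet, against 0.11, and 0.88 for Psmb9 over Psmb6. With 3 libraries a group, small changes can go uncalled.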
